A study of Homo sapiens with 18 samples.

Results

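The genes described here are 53 that encode the DNA replication machinery and the factors that start S phase. They were chosen by name, as the probes whose single gene symbol was on a fixed list, with the brightest probe taken where a symbol had several. All 53 were matched, each by 1 probe, out of 21448 probes and 17687 distinct gene symbols measured. The cells were OCI-AML3, an established human acute myeloid leukaemia line that the labels call wildtype in genotype. They were exposed for 24 h to RG7112 at 2 µM, to HDM201 at 500 nM or to the solvent DMSO, with 6 arrays per group and 18 in all. Both compounds inhibit the binding of MDM2 to the tumour suppressor p53, and each was given at a single dose. All groups therefore come from 1 cell line, and neither the number of cells nor their cell cycle stage is part of these values.

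Replication starts at origins that are prepared in G1 phase, when the origin recognition complex, CDC6 and CDT1 load the ring-shaped MCM helicase onto DNA. Cyclin E with its partner kinase and CDC7 with DBF4 then switch the loaded rings on, and CDC45 and the GINS complex join them to form the active helicase. Primase and polymerase alpha lay down primers, RFC loads the PCNA clamp, and polymerases delta and epsilon copy the strands. Many of these genes are transcribed under E2F factors, which are held in check by the retinoblastoma protein family when p53 raises the kinase inhibitor p21.

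Values are log2 signals as the authors deposited them, so a difference of 1 is a 2-fold change, and fold changes compare a gene with itself only. Array medians lay between 6.44 and 6.57, and the 53 genes spanned 5.43 to 11.58 over all arrays. RG7112 replicate 3 had a narrower spread of signals than the other arrays, with an interquartile range of 3.45 against 3.70 to 3.91. CDKN1A, which encodes p21, was higher by 3.97 ± 0.33 (SE) with RG7112 and by 4.10 ± 0.33 with HDM201 than with DMSO, and MDM2 by 2.57 ± 0.17 and 2.58 ± 0.17. Of 9 myeloid markers 8 were measured, and their mean per array ranged over 8.78 to 9.25 with RG7112, 9.07 to 9.21 with HDM201 and 8.91 to 9.12 with DMSO. MPO did not exceed 5.92, nor KIT 3.98, on any array. SPI1 rose by 0.34 with RG7112 and 0.38 with HDM201, and CSF3R by 0.64 with HDM201. The 13 measured of 15 lymphoid, erythroid, stromal and epithelial markers averaged 5.56 to 5.92 with RG7112, 5.52 to 5.76 with HDM201 and 5.47 to 5.76 with DMSO. Some of them were brighter than that average, with COL1A2 at 7.96 to 8.96 and EPOR at 7.47 to 7.98 over all arrays. EPCAM, at or below 4.67 on every array, was lower with HDM201 (-0.40). The part of these markers in the results was not tested.

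The replication genes were lower with both compounds. With RG7112, 48 of the 53 fell and 0 rose at a limma adjusted p under 0.05, while 9.61% of all probes fell, 7.9% rose and 17.5% changed in either direction. With HDM201, the same 48 fell and 0 rose, beside 9.64% of all probes lower, 9.16% higher and 18.8% changed. The median difference of the 53 was -1.22 with RG7112 and -1.41 with HDM201, against 0.03 and 0.02 over all probes. Among all probes, 0.76% lay below the genes' median with RG7112 and 0.709% with HDM201. At least 2-fold lower were 35 of the 53 with RG7112 (1.33% of all probes) and 41 with HDM201 (1.71%). Every array with the compound lay below every DMSO array for 47 genes with RG7112 (5.61% of all probes) and for 47 with HDM201 (6.92%). The 5 genes not called with either compound were ORC2, ORC5, POLD1, PCNA and LIG1. Because each array holds RNA from a whole culture, fewer cells in S phase and less RNA per cell cannot be told apart in these values. Both compounds were set against the same DMSO arrays.

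**Figure D1:**
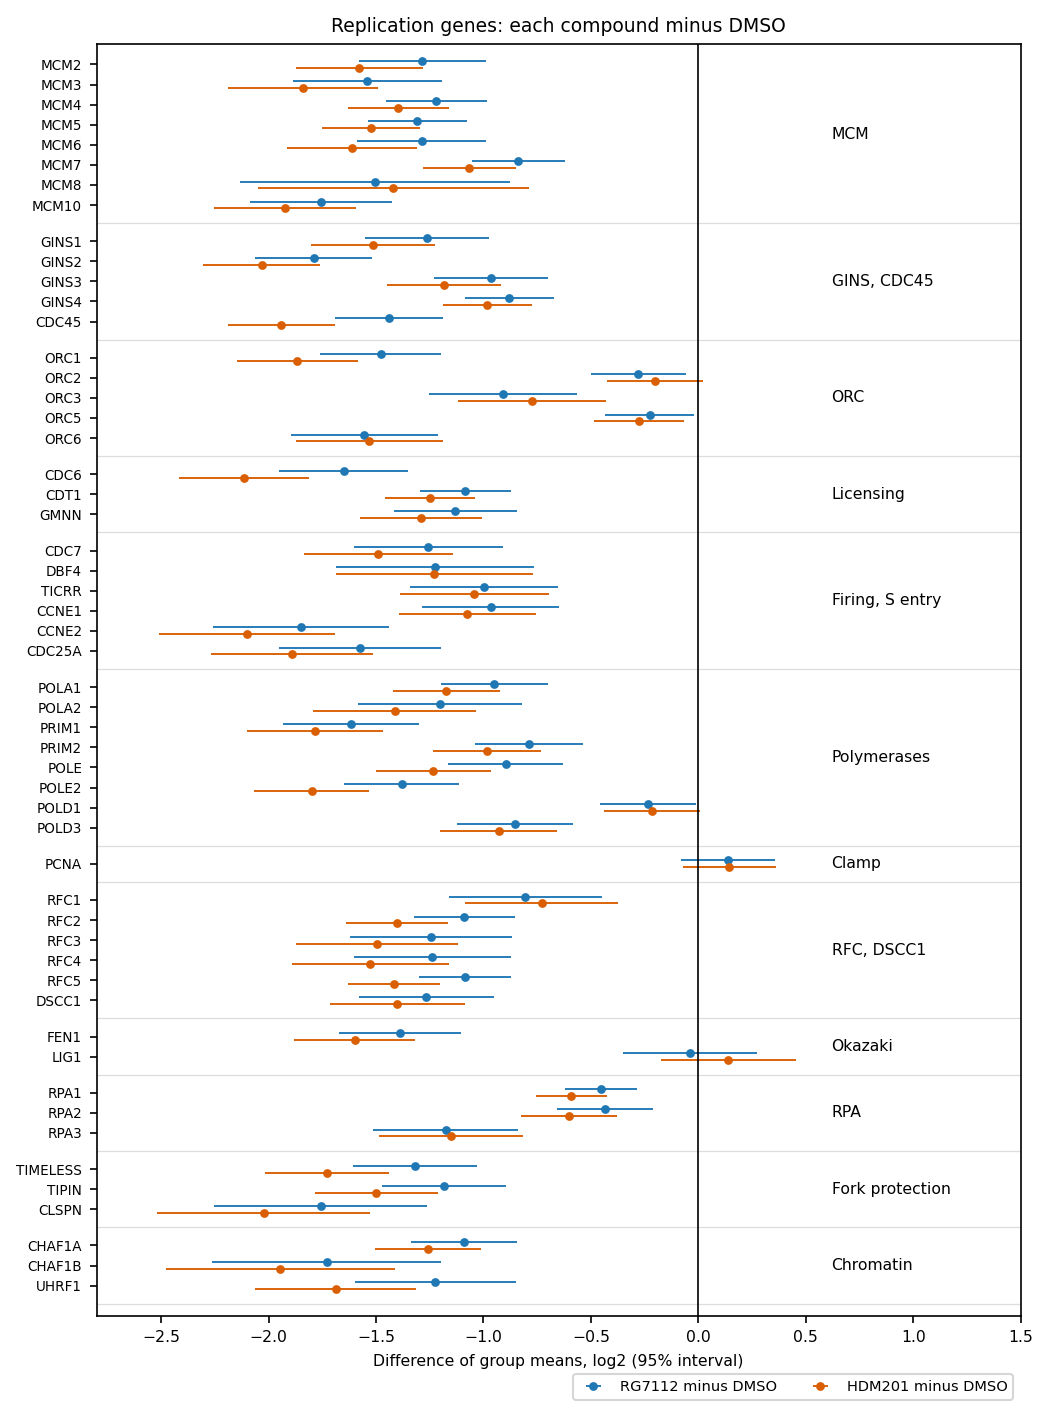
Difference of group means on the log2 scale for each of the 53 genes, RG7112 minus DMSO and HDM201 minus DMSO, grouped by complex; points are differences of means of 6 arrays and bars are 95% intervals. The 48 called genes lie left of 0, and the intervals of PCNA and LIG1 span 0.

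**Figure D2:**
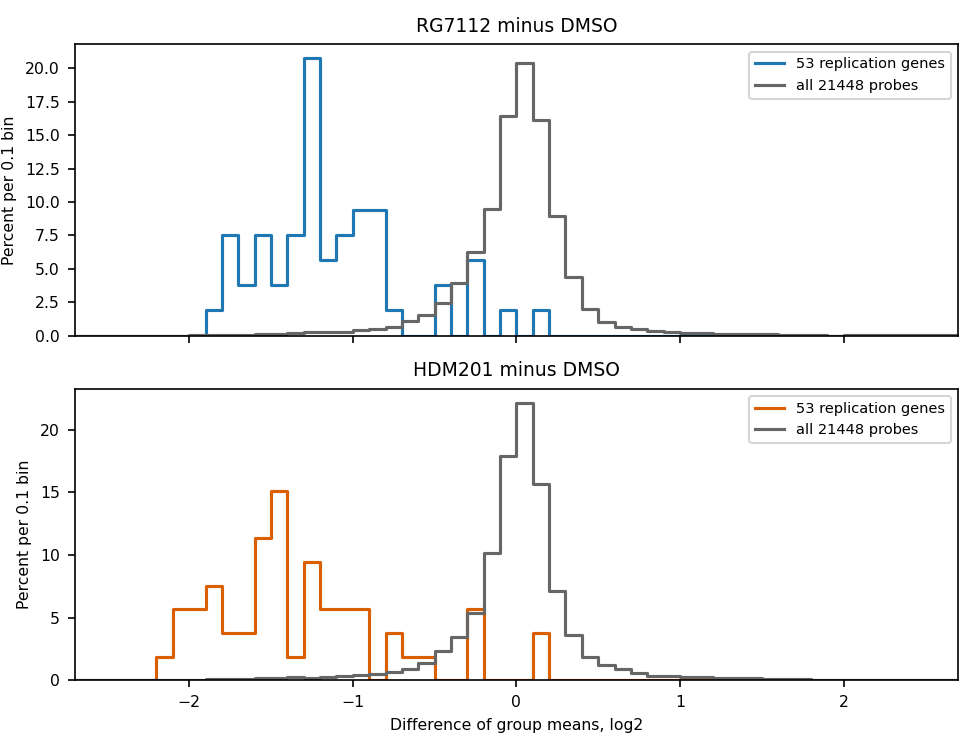
Share of the 53 replication genes and of all 21448 probes in bins of the log2 difference from DMSO, 1 panel per compound. The genes' medians of -1.22 (RG7112) and -1.41 (HDM201) lie in the left tail of the distribution of all probes.

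The sequences before the start sites are shown because they carry the letters that E2F factors are known to bind, in genes that fell and in genes that did not. RefSeq promoter windows of build GRCh38.p14, from 250 bases before to 50 after the start, were matched to 45 of the 53 genes. The other 8 were CCNE2, RPA3, MCM4, RPA2, GINS4, DSCC1, POLD3 and MCM5. The windows were searched on both strands for TTTCCCGC, TTTGGCGC, TTTCGCGC and TTTGCCGC, which can overlap each other on opposite strands. At least 1 of them was found in 24 of the 45 genes (53.3%), counting a match at any listed start. The share was 3.99% among 27305 genes of the table and 5.4% among its 15843 protein-coding genes. Of the 45 genes, 35 had 1 start, 7 had 2 and 3 had 3. By window, 25 of 58 held a match (43.1%), against 3.31% of all windows. For a gene with several starts, the start with most matches is shown, and CDC7 and PCNA had 2 starts each. The bases from 250 before the start up to the start follow. They run 5′ to 3′ on the strand of the gene, with the matched letters in capitals.
MCM6 (chr2:135876444-135876693, minus strand): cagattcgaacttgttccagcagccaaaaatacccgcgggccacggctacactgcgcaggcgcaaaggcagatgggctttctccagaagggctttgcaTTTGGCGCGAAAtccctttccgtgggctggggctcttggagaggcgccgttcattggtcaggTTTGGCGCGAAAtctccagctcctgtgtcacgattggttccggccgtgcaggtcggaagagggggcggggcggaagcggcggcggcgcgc
GINS2 (chr16:85688955-85689204, minus strand): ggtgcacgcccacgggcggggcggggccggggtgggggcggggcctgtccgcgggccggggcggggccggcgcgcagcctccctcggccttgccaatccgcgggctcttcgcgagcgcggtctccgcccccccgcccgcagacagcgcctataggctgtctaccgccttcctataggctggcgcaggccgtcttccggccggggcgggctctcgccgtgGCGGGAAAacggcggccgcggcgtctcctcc
CDC7 (chr1:91500862-91501111, plus strand): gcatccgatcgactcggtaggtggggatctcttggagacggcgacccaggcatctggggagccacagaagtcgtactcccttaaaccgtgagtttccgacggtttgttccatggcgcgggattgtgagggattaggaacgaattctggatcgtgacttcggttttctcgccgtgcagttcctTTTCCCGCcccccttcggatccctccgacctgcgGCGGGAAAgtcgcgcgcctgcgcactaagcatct
PCNA (chr20:5126623-5126872, minus strand): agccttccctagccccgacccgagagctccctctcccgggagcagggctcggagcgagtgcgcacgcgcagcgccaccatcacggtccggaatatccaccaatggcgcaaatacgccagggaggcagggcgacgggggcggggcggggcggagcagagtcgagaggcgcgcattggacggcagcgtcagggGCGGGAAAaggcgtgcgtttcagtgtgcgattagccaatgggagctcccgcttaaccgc
LIG1 (chr19:48170345-48170594, minus strand): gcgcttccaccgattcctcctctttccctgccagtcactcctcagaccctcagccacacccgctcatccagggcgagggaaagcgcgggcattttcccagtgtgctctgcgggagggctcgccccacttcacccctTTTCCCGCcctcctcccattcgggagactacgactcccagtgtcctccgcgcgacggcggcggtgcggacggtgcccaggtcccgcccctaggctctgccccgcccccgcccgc

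MCM6 held 4 matches, 152, 148, 90 and 86 bases before the start, which overlap on opposite strands to form a pair of identical runs of capitals. CDC7 held 2, at 68 and 34 bases before the start, and GINS2 held 1 at 31 bases. PCNA and LIG1, which were not called with either compound, also held 1 match each, at 59 and 114 bases. Among genes that fell with both compounds 22 of 40 (55.0%) had a match, and among the genes not called 2 of 5 (40%). The median difference was -1.23 in the 24 genes with a match and -1.09 in the 21 without with RG7112, and -1.49 and -1.40 with HDM201. CCAAT, the letters bound by NF-Y, was present in 28 of the 45 genes (62.2%), against 39.7% of all genes and 42.1% of protein-coding genes. The cell cycle homology letters TTTGAA or TTCGAA are known from genes of G2 phase and mitosis. They were present in 2 of the 45 (4.44%), against 19.5% of all genes and 17.5% of protein-coding genes. These matches describe letters in a window and were not tested as binding sites.

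All 6 subunits of the MCM ring, MCM2 to MCM7, fell with both compounds, with a median difference of -1.29 with RG7112 and -1.55 with HDM201. MCM3 had the largest fold among them, 2.91-fold lower with RG7112 and 3.58-fold with HDM201, and MCM7 the smallest, 1.79-fold and 2.09-fold. MCM3 signals were 7.91, 8.33 and 8.81 (lowest, median and highest of 6 arrays) with RG7112, 7.53, 8.24 and 8.47 with HDM201, and 9.76, 9.94 and 10.05 with DMSO. For MCM6 they were 7.77, 8.22 and 8.44 with RG7112, 7.32, 7.93 and 8.32 with HDM201, and 9.36, 9.46 and 9.66 with DMSO. In both genes the arrays with a compound lay below all DMSO arrays. MCM2 fell 2.44-fold and 2.98-fold with RG7112 and HDM201, MCM4 2.33-fold and 2.63-fold, MCM5 2.47-fold and 2.88-fold, and MCM6 2.44-fold and 3.06-fold.

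MCM10, which helps activate the loaded helicase, had signals of 5.89, 6.68 and 7.04 with RG7112, 6.10, 6.49 and 6.71 with HDM201, and 8.00, 8.40 and 8.73 with DMSO. Its differences of -1.76 ± 0.16 (SE, adjusted p = 2.54e-07) and -1.92 ± 0.16 (adjusted p = 3.33e-08) were the largest of the 8 MCM genes with each compound. MCM8, which works in recombination repair with MCM9, ranged over 7.17, 9.58 and 9.87 with RG7112, 8.98, 9.25 and 9.57 with HDM201, and 10.45, 10.73 and 10.80 with DMSO. The low RG7112 value was replicate 3. The MCM8 difference with RG7112 was -1.50 ± 0.30 (adjusted p = 0.00123) on all arrays and -1.10 ± 0.11 without that replicate, and with HDM201 it was -1.42 ± 0.30 (adjusted p = 0.00167).

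CDC45 and the 4 GINS subunits, the partners that turn the MCM ring into the active helicase, all fell. GINS2 had signals of 7.03, 7.27 and 7.80 with RG7112, 6.79, 7.04 and 7.48 with HDM201, and 8.93, 9.13 and 9.29 with DMSO. More than 1 log2 unit separated the highest array of either compound from the lowest DMSO array. GINS2 was 3.46-fold lower with RG7112 (-1.79 ± 0.13, adjusted p = 1.71e-08) and 4.09-fold lower with HDM201 (-2.03 ± 0.13, adjusted p = 2.12e-09). CDC45 signals were 8.08, 8.20 and 8.63 with RG7112, 7.38, 7.83 and 8.07 with HDM201, and 9.56, 9.70 and 9.82 with DMSO. The 3 groups of CDC45 arrays did not overlap at all. Its fold was 2.71 with RG7112 and 3.84 with HDM201. The other GINS subunits fell less, GINS1 2.40-fold and 2.86-fold, GINS3 1.95-fold and 2.27-fold, and GINS4 1.84-fold and 1.97-fold with RG7112 and HDM201.

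Within the origin recognition complex the subunits differed. ORC1, ORC3 and ORC6 fell with both compounds, and ORC2 and ORC5 were not called with either. ORC6 signals were 5.82, 6.41 and 6.95 with RG7112, 6.05, 6.42 and 6.64 with HDM201, and 7.63, 7.94 and 8.08 with DMSO. Both sets of compound arrays lay below the DMSO arrays, 2.94-fold lower on average with RG7112 (-1.55 ± 0.16, adjusted p = 1.29e-06) and 2.89-fold with HDM201 (adjusted p = 8.12e-07). ORC1, the subunit known to vary through the cell cycle in human cells, was 2.78-fold lower with RG7112 and 3.65-fold lower with HDM201. ORC3 was 1.88-fold and 1.71-fold lower. The subunit ORC4, on the further list described below, was not called with either compound. Its differences were 0.14 ± 0.13 with RG7112 (adjusted p = 0.504) and 0.01 ± 0.13 with HDM201 (adjusted p = 0.965).

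ORC2 signals were 7.91, 8.50 and 8.62 with RG7112, 8.34, 8.46 and 8.78 with HDM201, and 8.55, 8.70 and 8.83 with DMSO. For ORC5 they were 9.76, 9.95 and 10.22 with RG7112, 9.74, 9.92 and 10.11 with HDM201, and 9.99, 10.27 and 10.33 with DMSO. In both genes the compound arrays overlapped the DMSO arrays. The ORC2 differences were -0.28 ± 0.11 (adjusted p = 0.0773) and -0.20 ± 0.11 (adjusted p = 0.221), and those of ORC5 were -0.23 ± 0.10 (adjusted p = 0.127) and -0.28 ± 0.10 (adjusted p = 0.0600), with RG7112 and HDM201. Some alternative settings called ORC2 lower with RG7112, and ORC5 lower with either compound.

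The loading factors and the kinases that fire origins all fell. CDC6, which joins the origin recognition complex to load the MCM ring, had signals of 7.55, 7.92 and 8.21 with RG7112, 6.88, 7.51 and 7.81 with HDM201, and 9.28, 9.53 and 9.89 with DMSO. It was 3.14-fold lower with RG7112 (-1.65 ± 0.14, adjusted p = 1.73e-07) and 4.33-fold lower with HDM201 (-2.12 ± 0.14, adjusted p = 3.43e-09), with no overlap with DMSO. CDT1, the other loading factor, was 2.12-fold and 2.37-fold lower, and GMNN, the inhibitor of CDT1, was 2.19-fold and 2.45-fold lower. CDC7 and its activator DBF4 were 2.39-fold and 2.34-fold lower with RG7112, and 2.81-fold and 2.34-fold lower with HDM201. TICRR, which helps recruit CDC45 to origins, was 2.00-fold and 2.06-fold lower.

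CCNE2, a cyclin E gene that drives entry into S phase, had signals of 5.54, 6.48 and 7.14 with RG7112, 5.81, 6.24 and 6.47 with HDM201, and 8.03, 8.27 and 8.67 with DMSO. All compound arrays lay below the DMSO arrays. CCNE2 had the largest difference of the 53 genes with RG7112, -1.85 ± 0.20 (3.60-fold, adjusted p = 1.42e-06), and with HDM201 it was -2.10 ± 0.20 (4.29-fold, adjusted p = 1.5e-07), next to CDC6. CCNE1, the other cyclin E gene, fell less, by 1.95-fold and 2.11-fold. CDC25A, the phosphatase that activates the cyclin E kinase, was 2.98-fold lower with RG7112 and 3.71-fold lower with HDM201.

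**Figure D3:**
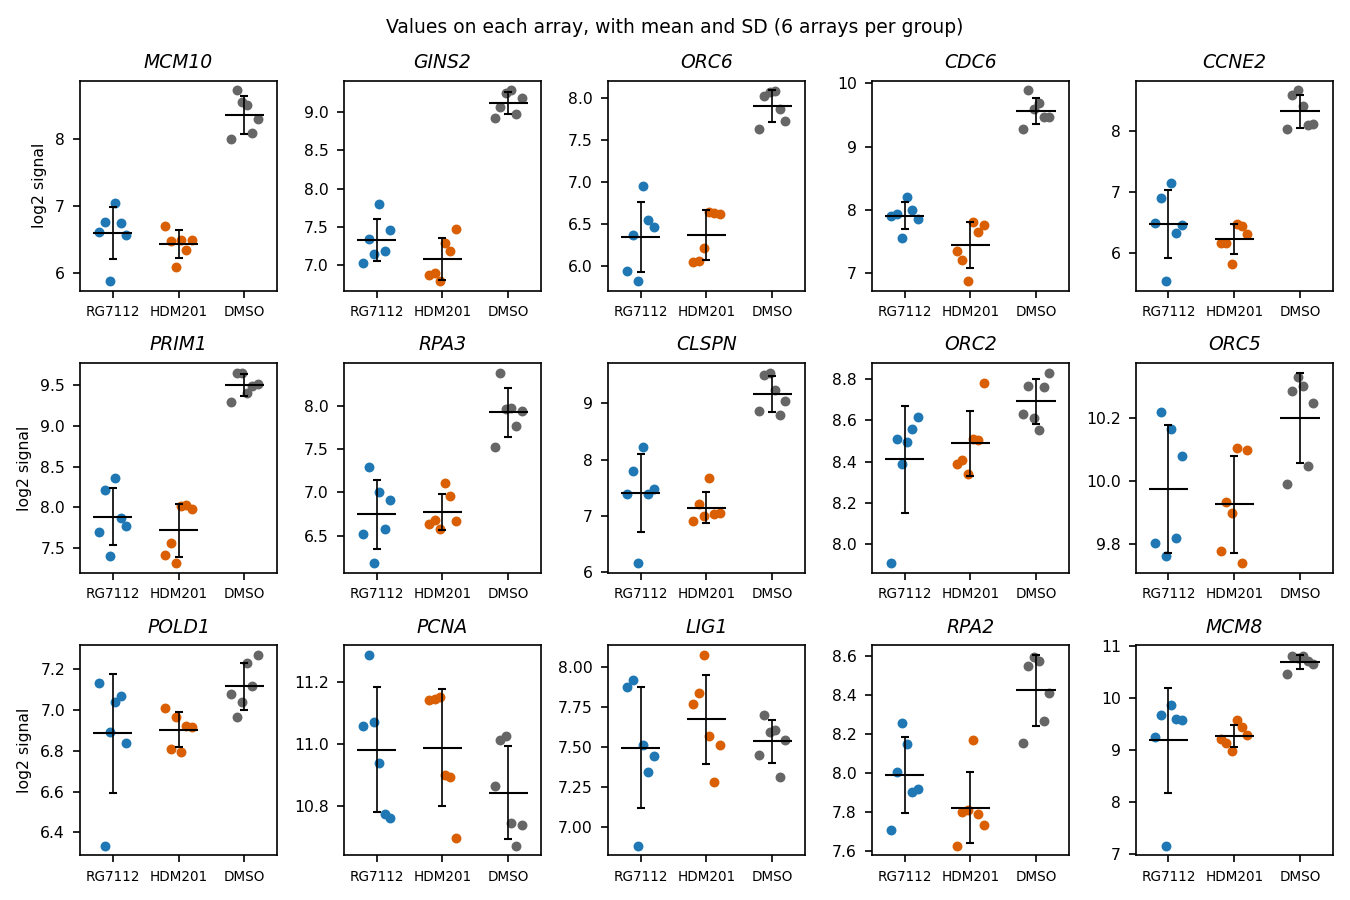
log2 signal of single genes on each of the 6 arrays per group (points), with the group mean and SD. The RG7112 and HDM201 arrays lie below the DMSO arrays for genes such as GINS2 and CDC6, while for PCNA and LIG1 the 3 groups overlap.

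The polymerase genes fell to different extents. PRIM1, the catalytic subunit of primase, had signals of 7.40, 7.82 and 8.36 with RG7112, 7.31, 7.77 and 8.03 with HDM201, and 9.30, 9.51 and 9.65 with DMSO. It was 3.07-fold lower with RG7112 (-1.62 ± 0.15, adjusted p = 3.32e-07) and 3.44-fold lower with HDM201 (adjusted p = 4.82e-08), with all compound arrays below DMSO. The other members of the primase and polymerase alpha complex fell less, PRIM2 1.73-fold and 1.98-fold, POLA1 1.93-fold and 2.25-fold, and POLA2 2.30-fold and 2.66-fold. For polymerase epsilon, the leading strand enzyme, the catalytic subunit POLE was 1.86-fold and 2.35-fold lower and POLE2 2.60-fold and 3.48-fold lower.

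Polymerase delta, the lagging strand enzyme, was split. POLD3, an accessory subunit, was 1.81-fold lower with RG7112 and 1.91-fold lower with HDM201. The subunit POLD2, on the further list described below, fell too. POLD2 was 1.80-fold lower with RG7112 (-0.85 ± 0.15, adjusted p = 4.08e-04) and 1.81-fold lower with HDM201 (-0.86 ± 0.15, adjusted p = 2.72e-04). POLD1, the catalytic subunit, had signals of 6.34, 6.97 and 7.13 with RG7112, 6.79, 6.92 and 7.01 with HDM201, and 6.97, 7.10 and 7.27 with DMSO. Its groups overlapped, and its differences of -0.23 ± 0.11 (adjusted p = 0.147) and -0.22 ± 0.11 (adjusted p = 0.194) were not called.

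PCNA, the sliding clamp that holds polymerases on DNA and is also known as a p53 target, had signals of 10.76, 11.00 and 11.29 with RG7112, 10.70, 11.02 and 11.15 with HDM201, and 10.67, 10.81 and 11.03 with DMSO. The 3 groups overlapped. Its difference was 0.14 ± 0.10 with RG7112 (95% interval -0.08 to 0.36, adjusted p = 0.398) and 0.14 ± 0.10 with HDM201 (-0.07 to 0.36, adjusted p = 0.407). LIG1, the ligase that joins Okazaki fragments, had signals of 6.88, 7.48 and 7.92 with RG7112, 7.28, 7.67 and 8.08 with HDM201, and 7.31, 7.57 and 7.70 with DMSO. Its groups overlapped as well, with differences of -0.04 ± 0.15 (-0.35 to 0.27, adjusted p = 0.894) and 0.14 ± 0.15 (-0.17 to 0.45, adjusted p = 0.607). The LIG1 difference with RG7112 was 0.08 without RG7112 replicate 3, and with HDM201 it was -0.03 in replicates 4 to 6, so neither has a settled direction. For PCNA and LIG1 both intervals thus leave out a 2-fold fall.

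FEN1, the nuclease that trims Okazaki fragments before LIG1 seals them, did fall. Its signals were 8.59, 9.01 and 9.53 with RG7112, 8.52, 8.89 and 9.17 with HDM201, and 10.33, 10.45 and 10.63 with DMSO. With no overlap, it was 2.62-fold lower with RG7112 (-1.39 ± 0.14, adjusted p = 4.71e-07) and 3.03-fold lower with HDM201 (adjusted p = 4.6e-08).

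The 5 subunits of RFC, the loader of the PCNA clamp, all fell. RFC2 was 2.13-fold and 2.64-fold lower with RG7112 and HDM201, RFC3 2.37-fold and 2.82-fold, RFC4 2.36-fold and 2.88-fold, and RFC5 2.12-fold and 2.67-fold. RFC1, the large subunit, was 1.75-fold lower with RG7112 (-0.81 ± 0.17, adjusted p = 0.00196) and 1.66-fold lower with HDM201 (adjusted p = 0.0037). Without RG7112 replicate 3 the RFC1 difference with RG7112 was -0.59 ± 0.08. DSCC1, part of an alternative clamp loader used in cohesion, had signals of 5.69, 6.09 and 6.56 with RG7112, 5.75, 6.02 and 6.23 with HDM201, and 6.88, 7.40 and 7.91 with DMSO. Its arrays were apart from DMSO, at -1.27 ± 0.15 with RG7112 (adjusted p = 4.87e-06) and -1.40 with HDM201 (adjusted p = 8.42e-07).

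RPA, the complex that coats single-stranded DNA, showed the smallest called falls. RPA1 was 1.37-fold lower with RG7112 (-0.45 ± 0.08, adjusted p = 3.68e-04) and 1.51-fold lower with HDM201 (adjusted p = 1.36e-05). RPA2 had signals of 7.71, 7.96 and 8.26 with RG7112, 7.63, 7.80 and 8.17 with HDM201, and 8.16, 8.48 and 8.59 with DMSO. It was the called gene whose compound arrays overlapped the DMSO arrays, with both compounds, at -0.44 ± 0.11 (adjusted p = 0.0066) and -0.60 (adjusted p = 2.83e-04). RPA3, the small subunit, fell further, to 6.18, 6.74 and 7.29 with RG7112 and 6.58, 6.68 and 7.11 with HDM201, against 7.52, 7.95 and 8.38 with DMSO. Its folds were 2.26 and 2.22.

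Fork protection and chromatin genes fell too. CLSPN, an adaptor of the replication checkpoint, had signals of 6.16, 7.44 and 8.23 with RG7112, 6.91, 7.04 and 7.67 with HDM201, and 8.80, 9.14 and 9.55 with DMSO. Its arrays did not overlap DMSO, at 3.38-fold lower with RG7112 (-1.76 ± 0.24, adjusted p = 2.08e-05) and 4.06-fold lower with HDM201 (adjusted p = 2.37e-06). TIMELESS and TIPIN, which travel with the fork as a pair, were 2.49-fold and 2.27-fold lower with RG7112, and 3.31-fold and 2.82-fold lower with HDM201. CHAF1B, a subunit of the histone chaperone that follows the fork, had signals of 5.79, 7.42 and 7.64 with RG7112, 6.38, 6.92 and 7.46 with HDM201, and 8.63, 8.81 and 9.26 with DMSO. The arrays were apart, and the difference with RG7112 was -1.73 ± 0.26 (adjusted p = 5.66e-05), or -1.46 without replicate 3. CHAF1A, its partner, was 2.13-fold and 2.39-fold lower, and UHRF1, which brings the maintenance methyltransferase to new DNA, 2.34-fold and 3.22-fold lower.

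**Figure D4:**
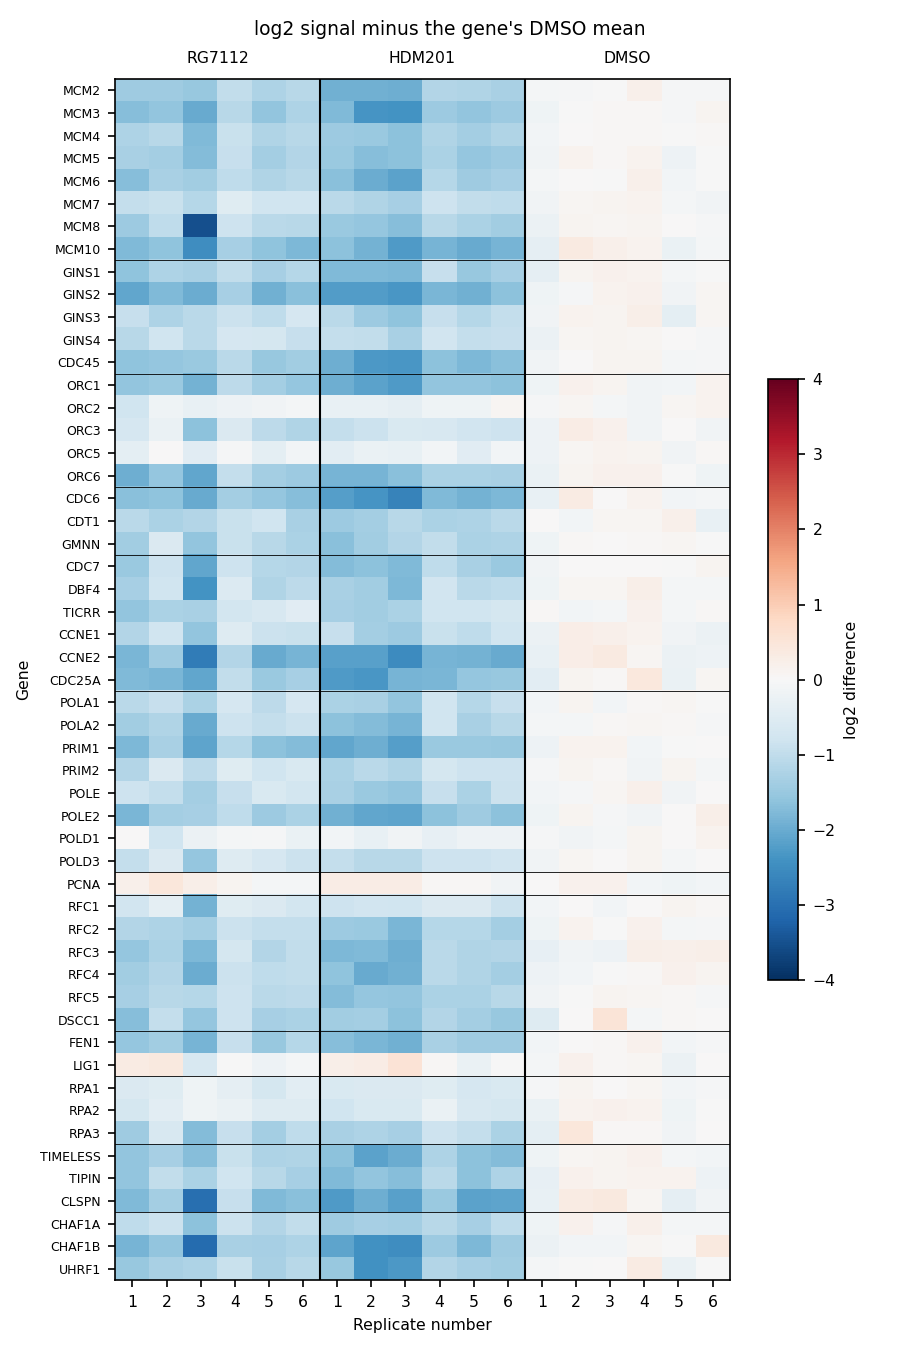
log2 signal minus the DMSO mean of the gene, for each of the 53 genes (rows, by complex) and each of the 18 arrays (columns, RG7112, HDM201 and DMSO, by replicate number). The rows of ORC2, ORC5, POLD1, PCNA and LIG1 show smaller differences between the groups than most other rows.

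Most replication genes on a further list, outside the 53, also fell. Of 46 listed, 42 were measured, and 33 of them fell with RG7112 and 34 with HDM201, while 1 rose with each. Of all probes, 9.61% fell and 7.9% rose with RG7112, and 9.64% and 9.16% with HDM201. The median difference of the 42 was -0.81 with RG7112 and -0.86 with HDM201, against 0.03 and 0.02 over all probes. The largest called differences with RG7112 were those of ESCO2, a cohesin acetyltransferase (-1.85 ± 0.27), the checkpoint kinase CHEK1 (-1.69 ± 0.19), DTL, which targets CDT1 for destruction (-1.64 ± 0.21), and CDCA7 (-1.63 ± 0.19). With HDM201 they were CHEK1 (-2.01 ± 0.19), ESCO2 (-2.01 ± 0.27), DTL (-1.93 ± 0.21) and FBXO5, an inhibitor of the anaphase-promoting complex (-1.81 ± 0.16). The gene that rose was POLD4, the small subunit of polymerase delta, by 0.30 ± 0.10 with RG7112 (adjusted p = 0.0333) and 0.42 ± 0.10 with HDM201 (adjusted p = 0.00287). The POLD4 call with RG7112 was lost under 9 of 31 alternative settings, among them without RG7112 replicate 1 or 2 or DMSO replicate 2, 5 or 6 (adjusted p from 0.0528 to 0.196 over the 9), and with HDM201 it was lost within replicates 1 to 3 alone (0.0923).

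HDM201 and RG7112 were used at different doses, 500 nM and 2 µM, so their direct difference also holds the difference in dose. No gene of the 53 was called between them by limma, and 0 of all 21448 probes were. At an unadjusted p under 0.05 there were 12 of the 53, all lower with HDM201, beside 3.49% of all probes. HDM201 was the lower of the compounds in 44 of the 53 genes, where 49% of all probes were lower, and the median difference was -0.21, or -0.29 without RG7112 replicate 3. CDC45 had the largest difference, -0.50 (95% interval -0.75 to -0.25, adjusted p = 0.991), and was the gene whose HDM201 arrays all lay below the RG7112 arrays, as in 0.042% of all probes. CDC6 and UHRF1 followed at -0.46 each. For 29 of the 53 the interval lay wholly within 0.5 of 0 on either side, and over all 53 the intervals ran from -0.84 to 0.71. The data thus bound these differences without showing that the compounds act alike.

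The fall was also set side by side in replicates 1 to 3 and in replicates 4 to 6. This split follows the replicate numbers and was known from these arrays, and the labels do not say what the numbers mark. The median difference from DMSO was -1.33 in replicates 1 to 3 and -1.07 in replicates 4 to 6 with RG7112, and -1.57 and -1.26 with HDM201. Within replicates 1 to 3, 47 genes were called lower with RG7112 (8.64% of all probes) and 48 with HDM201 (8.89%). Within replicates 4 to 6, 45 were called lower with RG7112 (3.87%) and 46 with HDM201 (4.46%). The change was more negative in replicates 1 to 3 for 50 of the 53 genes with RG7112 (50.7% of all probes) and 49 with HDM201 (51.1%). In the test of that difference 0 genes were called with either compound, beside 0.0373% of all probes with RG7112 and 0.149% with HDM201. At an unadjusted p under 0.05 there were 4 genes with RG7112 (6.1% of all probes) and 13 with HDM201 (6.13%). MCM2 with HDM201 had -1.89 in replicates 1 to 3 and -1.26 in replicates 4 to 6 (adjusted p of the difference = 0.111). Between the DMSO arrays of the sets 0 of the 53 were called (0.303% of all probes), with a median difference of -0.03 and 2 genes at an unadjusted p under 0.05 (5.86% of all probes). The same DMSO arrays did differ in the p53 target genes: CDKN1A was higher in replicates 1 to 3 by 1.65 (adjusted p = 2.00e-06) and MDM2 by 0.89 (adjusted p = 1.52e-04). The part of this difference in the values by replicate set was not tested.

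**Figure D5:**
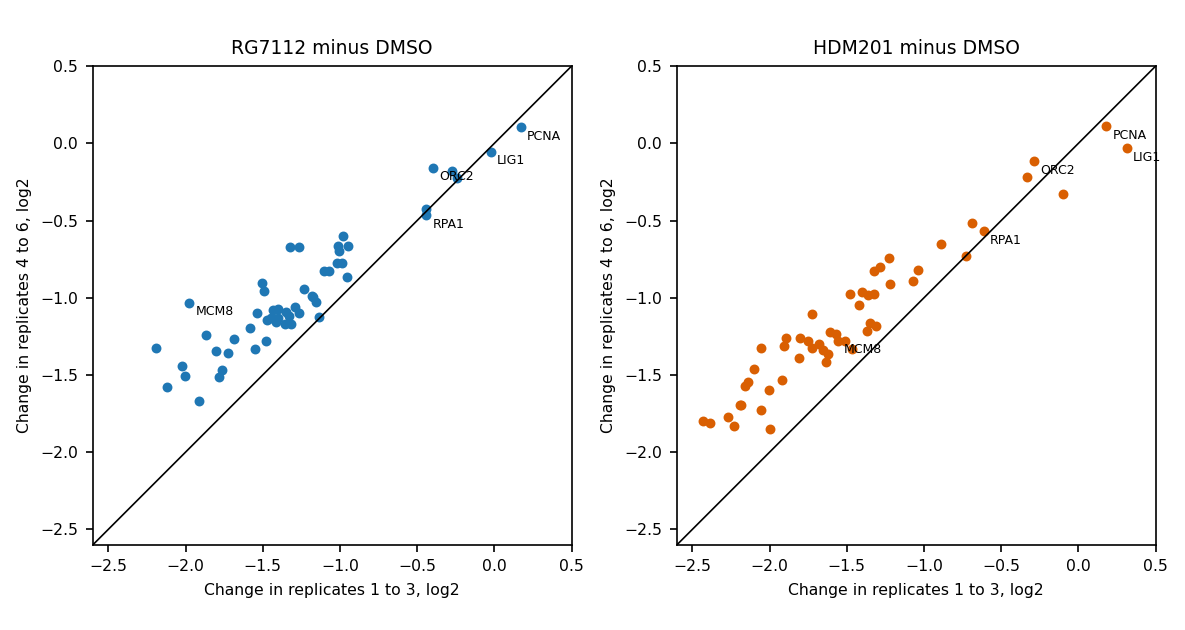
Change from DMSO in replicates 1 to 3 (x axis, log2) against the change in replicates 4 to 6 (y axis, log2), 1 point per gene and 1 panel per compound, with the line of equality. Most points lie above the line, with medians of -1.33 against -1.07 (RG7112) and -1.57 against -1.26 (HDM201).

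Single arrays also differed within the groups. The median signal of the 53 genes ran from 7.40 in replicate 3 to 8.21 in replicate 4 with RG7112, from 7.31 in replicate 3 to 7.94 in replicate 4 with HDM201, and from 8.87 in replicate 1 to 9.16 in replicate 4 with DMSO. Replicate 3 was the lowest array for 34 of the 53 genes with RG7112 and for 30 with HDM201, and DMSO replicate 1 for 37. The median SD of the genes was 0.29 with RG7112, 0.27 with HDM201 and 0.14 with DMSO, against 0.22, 0.17 and 0.15 over all probes. Without RG7112 replicate 3 the median difference with RG7112 was -1.09, and the same count of 48 genes fell. The part of that array's narrower signal range in these values was not tested.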

How the data were processed

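Total RNA of OCI-AML3 cells was labelled with biotin and hybridised to 18 arrays, per the labels. As deposited by the authors, each value is a log2 signal from RMA in the oligo package, per the submitters' processing notes, whose tool versions are absent from the sources used here; no array coordinates are therefore printed. A platform annotation table gave 17709 probes 1 gene symbol, 0 several and 3739 none. limma 3.58.1 in R 4.3.3 fitted 1 mean per group over all 18 arrays, with Benjamini-Hochberg adjustment over all 21448 probes and a call at adjusted p under 0.05. A further fit used 6 cells of group and replicate set. The fit was tested on simulated data with independent noise in each probe and array. That noise holds no link between same-numbered arrays and no difference in array quality. Intervals are 95%, and precision is limited by the 6 arrays in each group. The labels call the replicates biological without saying how cultures were separated, so the tests measure only spread among these arrays, which may be technical.

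The members and gene lists were chosen with earlier results of these data known. By the rule for named genes, all members may be named; in each complex the called member with the largest difference for RG7112, and each member not called in a comparison with DMSO, has its lowest, median and highest value given, with a few others added after their values were seen (MCM3, MCM6, MCM8, CDC45, RPA2). Of the other replication genes, the 4 largest called differences per comparison and each called increase are named. ORC4 and POLD2 were added afterwards, beside the other subunits of their complexes. Between HDM201 and RG7112, deviations of same-numbered arrays correlated in 6 of 6 pairs (0.117 to 0.440, over probes). Of the HDM201 arrays, 4 of 6 matched the RG7112 array of their own number best. The labels do not state a pairing, and the main fit is unpaired. A fit with the replicate number as a block is given as an alternative. Alternatives covered the prior, array weights, scaling, dim probes, the probe rule, the replicate block and sets, and each array left out.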

Additional observations from a re-analysis of the deposited data

Results flagged for a closer look

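In 9 of 159 groups of 6 arrays, over 53 genes and 3 groups, the highest or lowest array stood apart from the others by Dixon's test at the 95% level. Chance flags about 1 in 20 groups. RG7112 replicate 3 was the lowest array for MCM4 at 8.95 (others 9.50 to 9.83), for MCM8 at 7.17 (9.24 to 9.87), for RFC1 at 7.25 (8.37 to 8.74) and for CHAF1B at 5.79 (7.01 to 7.64). RG7112 replicate 1 was low for ORC2 at 7.91 (8.39 to 8.62), and RG7112 replicate 2 for POLD1 at 6.34 (6.84 to 7.13). HDM201 replicate 4 was the highest for RPA2 at 8.17 (7.63 to 7.81). Among DMSO arrays, replicate 4 was the highest for MCM2 at 9.92 (9.63 to 9.71), and replicate 1 the lowest for GMNN at 8.54 (8.71 to 8.81).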

How the results depend on the processing

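Of the 53 genes, 48 were called with RG7112 whichever array was left out, and 48 to 49 with HDM201. Under the other settings the counts were 35 to 50 and 41 to 50, lowest where a 2-fold change was also required, and no called gene changed direction. The uncalled LIG1 changed sign with RG7112 (-0.04, against 0.02 with array weights and 0.08 without RG7112 replicate 3) and with HDM201 (0.14, against -0.03 in replicates 4 to 6 alone). Between HDM201 and RG7112 the count was 0 under every setting run. The other replication genes had 33 to 35 calls with RG7112 and 33 to 36 with HDM201 with an array left out, and 28 to 35 and 30 to 36 otherwise. With the replicate block, 50 genes were called with RG7112 (ORC2 and ORC5 added, adjusted p = 0.0286 and 0.0390) and 49 with HDM201 (ORC5 added, adjusted p = 0.0123). Same-numbered arrays correlated at 0.017 to 0.365 (RG7112 and DMSO) and 0.083 to 0.299 (HDM201 and DMSO), over 0.1 in 5 of 6 pairs each. In each comparison 5 of 6 arrays matched their own number best. The arrays of a number thus mostly resembled each other, though the labels do not say what a number marks. The main fit leaves this out, and the replicate block takes it in. ORC2 with RG7112 was also called without the dimmest 0.5 of probes (adjusted p = 0.0480), with array medians subtracted (0.0419) and with the replicate sets as a term (0.0425). ORC5 with HDM201 was also called with an array left out (adjusted p from 0.0351 to 0.0493). Those arrays were RG7112 replicate 2 or 3, HDM201 replicate 4 or 6, or DMSO replicate 1. It was called too with a trended and robust prior (0.0466) and with array weights (0.0167). Leaving out the dimmest 0.25 (0.0492) or 0.5 (0.0353) of probes called it as well. With HDM201 both ORC5 (0.0317) and POLD1 (0.0389) were called on the 12 arrays compared alone. The block changed no call between the compounds. Within replicates 1 to 3 alone, ORC3, RFC1, RPA1 and RPA2 lost their call with RG7112, and MCM8, ORC3 and RFC1 with HDM201; RPA2 also did within replicates 4 to 6 with RG7112. Those fits hold 3 arrays per group. For the difference between the replicate sets, array weights gave 3 genes with RG7112 (ORC6, TICRR and PRIM2) and 1 with HDM201 (MCM2, adjusted p = 0.00657), where 0 were called otherwise. With an array left out, chosen after seeing the data, that count was 0 for RG7112 and 0 to 1 for HDM201, with MCM2 called without RG7112 replicate 3 (adjusted p = 0.0415). No called difference moved by more than 1.5 times when an array was left out. The 6 arrays per group limit what can be called for genes such as ORC2 and ORC5.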
